A study of Mus musculus with 46 samples.

Results

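Transcript levels of 6 genes of the cell cycle, DNA replication and chromosome structure (Ccne2, Ccnc, Melk, Orc3, Smc2 and Esco1) were followed in mouse embryonic fibroblasts (MEFs) with and without ATF4, a transcription factor of the amino acid response. The genes were chosen by function, from stretches of chromosomes 4 and 18 in which the row identifiers of the deposited table match their genes. All 6 were found among its 55416 gene rows, and all 6 passed the minimum mean of 5 CPM (counts scaled to the library total). RNA was sequenced after 7 h from ATF4 KO MEFs with borrelidin (n = 12), ATF4 KO MEFs with vehicle (n = 11), wild type (WT) MEFs with borrelidin (n = 12) and WT MEFs with vehicle (n = 11). Borrelidin, an inhibitor of threonyl-tRNA synthetase, was given at 600 nM in DMSO at 1% v/v, and the vehicle was DMSO at 1% v/v alone. The WT MEFs were purchased, and the ATF4 KO line was made from CRISPR/Cas9-edited, sorted cells in the laboratory of the study. A difference between the genotypes is therefore a difference between these lines, and loss of ATF4 cannot be told apart from other differences between them. The row of Atf4 lies outside the stretches with matching identifiers, so its transcript was not examined.

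A dividing cell commits to DNA synthesis when cyclins of the E type activate the kinase Cdk2, and it can copy only those origins that the origin recognition complex has marked. The copied chromatids are then held together by cohesin, a ring that acetyltransferases lock onto DNA, and are compacted by condensin before mitosis. When amino acids run short, uncharged tRNA activates the kinase GCN2, general translation falls and ATF4 is translated, so growth and division are known to slow under such stress. Messenger RNA levels in a population of cells do not by themselves give the rate of division, and in bulk RNA fewer cells with a transcript and less of it per cell cannot be told apart.

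Positions are those of the mouse build GRCm38 with the GENCODE M21 annotation, and values are for whole gene rows, that is all exons together. Ccne2 (ENSMUSG00000028212), cyclin E2, lies on chromosome 4 at 11191351 to 11204779. Ccnc (ENSMUSG00000028252), cyclin C, which with Cdk8 or Cdk19 forms the kinase module of the Mediator complex, lies at 21727701 to 21759922. Orc3 (ENSMUSG00000040044), a subunit of the origin recognition complex, lies at 34570796 to 34614944, and Melk (ENSMUSG00000035683), a protein kinase most abundant in dividing cells, at 44300876 to 44364675. Smc2 (ENSMUSG00000028312), a core ATPase of condensin, lies at 52439243 to 52488260. Esco1 (ENSMUSG00000024293), an acetyltransferase of the cohesin subunit Smc3, lies on chromosome 18 at 10566507 to 10610352.

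An exon of Ccne2 overlaps Ints8 on the opposite strand by 474 bp, and an exon of Ccnc overlaps Tstd3 on the opposite strand by 171 bp. The strand setting of the counting is not given in the sources used here, so the values of Ccne2 and Ccnc may hold reads of these partners.

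Promoters of dividing-cell genes often carry binding letters of E2F factors or the cell cycle homology region (CHR), and these were searched on both strands of RefSeq promoter sequences (GRCm38.p6), each with 250 bases before and 50 after the start of the gene. Of the 6 genes, Ccnc, Melk, Orc3 and Smc2 had an entry. The E2F letters searched (TTNNCGC, where each N is G or C) occur in 9.57% of the 32851 promoters and the CHR letters (TTTGAA) in 17.9%. Orc3 held an E2F match starting at base -40 and Smc2 a CHR match, on the reverse strand, starting at base -145. The windows around both matches are shown because they are the only matches before the start of a gene here, with the matched letters in capitals (for Smc2 as they read on the plus strand). A further CHR match of Smc2 lay past the start, at base 26.
Orc3, chr4:34614964-34614993, minus strand: catgcctccctTTCCCGCacgccccgcctc
Smc2, chr4:52439065-52439094, plus strand: cgctttccatgTTCAAAacggtatagtctc
The core letters of ATF4 sites (TTNCATC, where N is G or T), found in 6.18% of all promoters, were not in these 4 windows of 300 bases. A match is a description of the letters, not of binding.

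Counts assigned to gene rows ranged from 2047362 to 3467765 per library (median 2869299), and per library the genes held between 130 counts (the lowest of Esco1) and 2723 counts (the highest of Smc2). In 3 groups the libraries fall into sets known from earlier results of these data. Replicates 1 to 8 of WT with vehicle, and replicates 1 to 3 in both of the ATF4 KO groups, stand apart from the other replicates of their group, and these 14 libraries are called the set-apart libraries. None of the 12 libraries of WT with borrelidin is among them. Each value of the 6 genes that passed the test is therefore given with all libraries, and again without the 14. The labels call the replicates biological and name no batch, so p-values measure the spread between libraries of 1 line per genotype. Of the fibroblast and mesenchymal markers in the same stretches, Zeb1, Tpm2, Tgfbr1 and Reck were detected in all 4 groups, and Col15a1, a collagen gene, averaged at most 1.40 CPM in any group.

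Smc2 was the most abundant of the 6 transcripts. Per kilobase of exon, it averaged 119.0 ± 10.4 CPM in ATF4 KO with borrelidin, 138.0 ± 12.5 in ATF4 KO with vehicle, 132.0 ± 16.7 in WT with borrelidin and 122.0 ± 17.1 in WT with vehicle (SD, n = 12, 11, 12 and 11). Melk (78.8 to 88.2 CPM per kilobase) and Ccne2 (54.8 to 85.9) came next by group mean, and their order changed between groups. Ccnc (25.4 to 37.6) and Orc3 (24.8 to 35.4) differed in each group by less than the SD of Ccnc (3.73 to 5.63), and in both ATF4 KO groups by more than the SD of Orc3 (1.69). Esco1 was the least abundant (17.3 to 24.0). The next values are CPM after TMM normalization, a scaling for differences in library composition, and not per length.

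**Figure D1:**
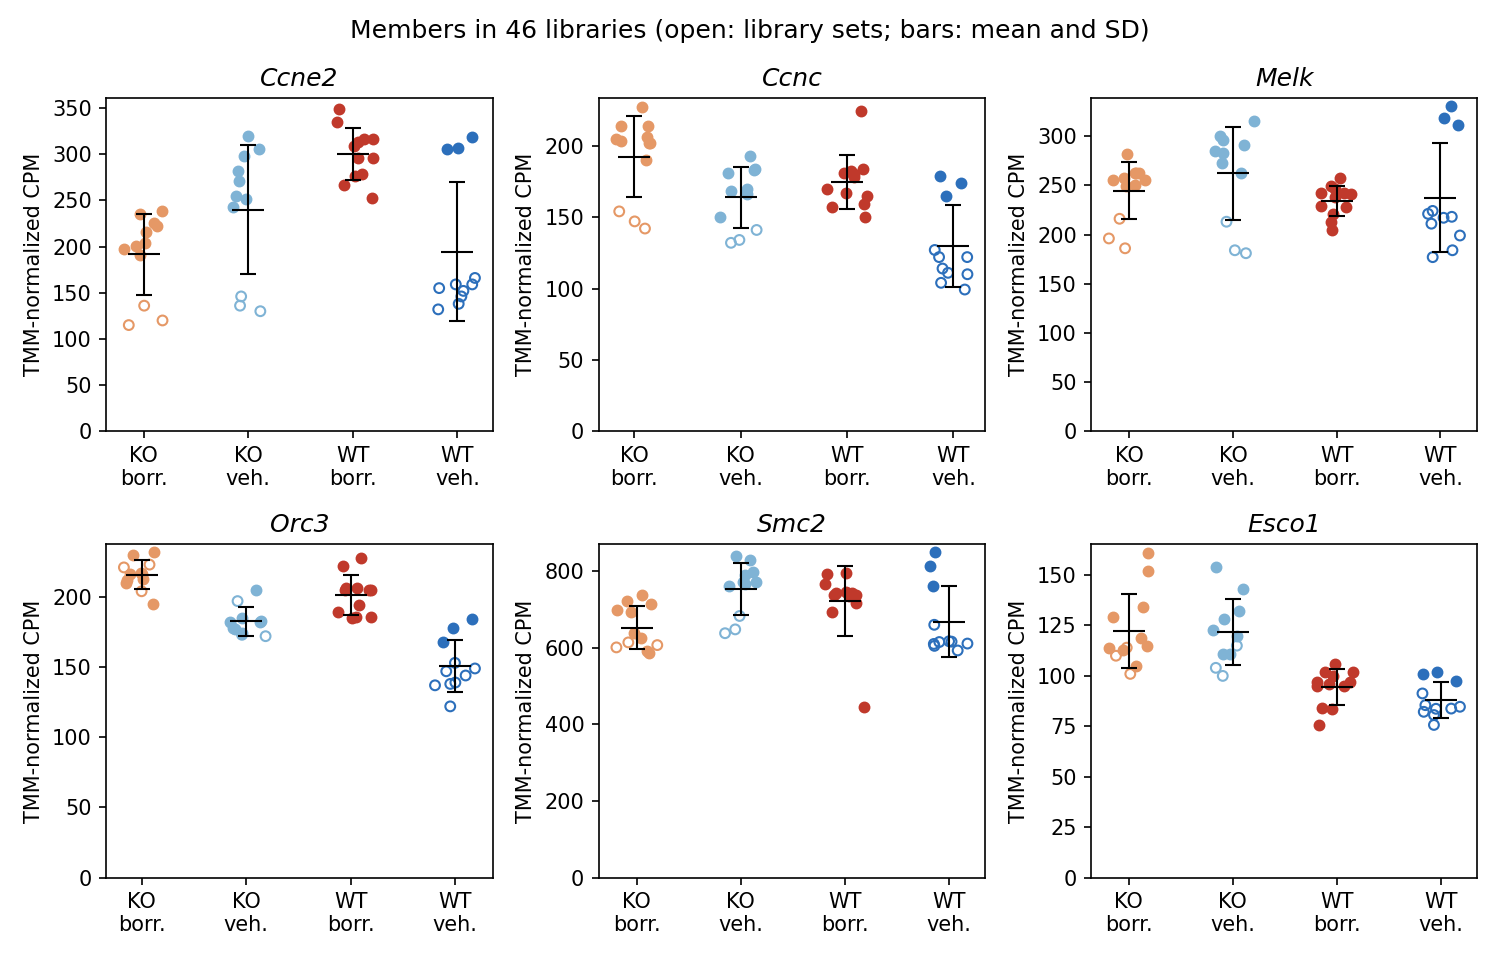
TMM-normalized CPM (vertical axes) of the 6 genes in each of the 46 libraries, in the groups ATF4 KO with borrelidin, ATF4 KO with vehicle, WT with borrelidin and WT with vehicle. Each point is 1 library, open points are the 14 set-apart libraries, and black lines give the mean ± SD of a group. Ccne2 lies between 115 and 238 CPM in ATF4 KO with borrelidin and between 252 and 349 CPM in WT with borrelidin, without overlap.

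Of the 6 genes, Ccne2 differed most between the library sets. It had 132, 154 and 166 CPM (lowest, median and highest) in the 8 set-apart libraries of WT with vehicle, against 305, 307 and 319 CPM in the other 3. In ATF4 KO with borrelidin it had 115, 120 and 136 CPM in the 3 set-apart libraries, against 191 to 238 CPM in the other 9, and in ATF4 KO with vehicle 130, 136 and 146 CPM in the 3 set-apart libraries, against 243 to 320 CPM in the other 8. The sets did not overlap in any of the 3 groups, and the ratio of their means was 0.486, 0.575 and 0.494. Ccnc (ratios 0.659, 0.713 and 0.777) and Melk (0.645, 0.767 and 0.669) were also lower in the set-apart libraries of each group without overlap. Orc3 had ratios of 0.80, 1.003 and 0.986, and its sets overlapped in both ATF4 KO groups. Smc2 (0.762, 0.909 and 0.83) overlapped in ATF4 KO with borrelidin, and Esco1 (0.833, 0.853 and 0.833) in both ATF4 KO groups. Sets without overlap were common over all 8986 tested rows, at 40.3%, 37.1% and 44.1% in these groups, so the separation is not particular to these genes. The share of reads outside annotated features was alike in the sets, with means from 67.9% to 70.4%. These sets were described without a test, because they were defined on the same libraries.

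**Figure D2:**
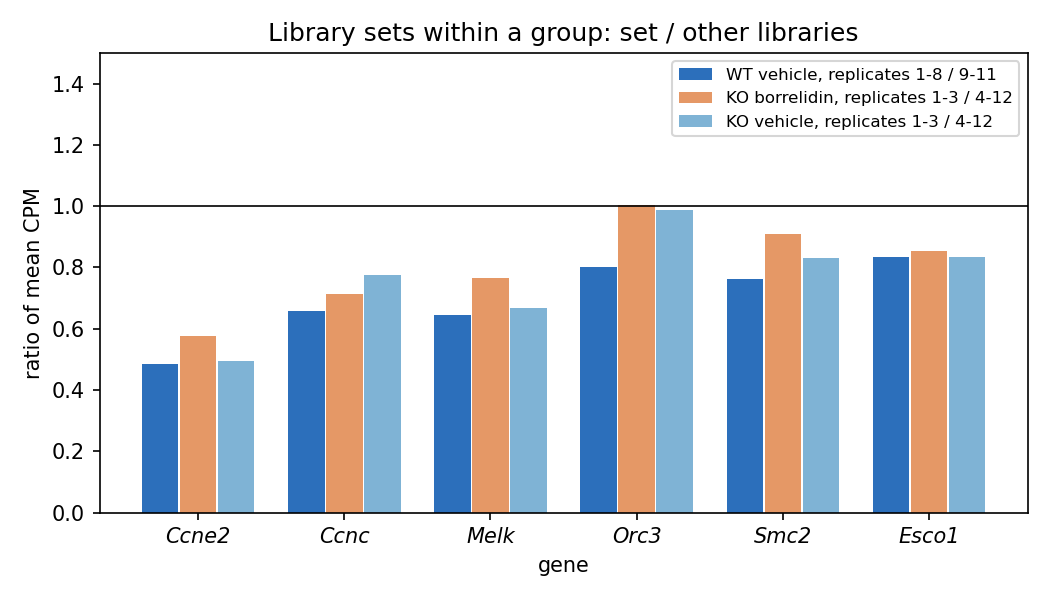
Ratio of the mean CPM of the set-apart libraries to that of the other libraries of the same group (vertical axis, starting at 0) for each gene, in WT with vehicle, ATF4 KO with borrelidin and ATF4 KO with vehicle. The line marks a ratio of 1. Ccne2 has the lowest ratios, from 0.486 to 0.575, and Orc3 in both ATF4 KO groups is near 1.

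The first question was how the transcripts responded to borrelidin in WT MEFs, where the treatment raises ATF4 activity. With all libraries Ccne2, Ccnc and Orc3 rose with borrelidin and no gene of the 6 fell, at an adjusted p under 0.05 in edgeR's quasi-likelihood test (Benjamini-Hochberg over 8986 rows). Over all rows 57.2% were called in this comparison, 26.5% higher and 30.7% lower, so 3 of 6 is near the background. Among the 205 tested protein-coding genes of the same stretches 61.5% were called, 87 higher and 39 lower. More calls higher than lower are thus not particular to the 6 genes. These counts use all libraries and were not repeated without the 14. None of the 6 passed 1e-10, which 1.36% of all rows passed. The study used this threshold, among others, for its limma model of ATF4 activity. Here it is applied to adjusted p-values of edgeR in each comparison, so the counts are not those of the study. With all libraries the median log2 fold change of the 6 was 0.26, against -0.04 over all rows. Without the 14 libraries the values of the 6 ranged from -0.46 (Melk) to 0.18 (Orc3), with a median of 0.01 over all rows.

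Orc3 had 185.4, 204.7 and 228 CPM (lowest, median and highest) in WT with borrelidin, against 122.2, 146.7 and 184.5 CPM in WT with vehicle. The groups did not overlap, which held for 4.16% of all rows in the higher direction. Its log2 fold change was 0.42 ± 0.07 (SE, adjusted p = 1.32e-06, edgeR). Ccne2 had 252, 303 and 349 CPM with borrelidin, against 132, 159 and 319 CPM with vehicle, a log2 fold change of 0.63 ± 0.16 (SE, adjusted p = 0.0011, edgeR). Ccnc had 150, 174 and 224 CPM with borrelidin, against 99.3, 122 and 179 CPM with vehicle, a log2 fold change of 0.43 ± 0.10 (SE, adjusted p = 3.38e-04, edgeR). Both groups overlapped for Ccne2 and Ccnc, through the 3 vehicle libraries outside the set.

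The calls of Ccne2 and Ccnc in WT were lost without the 14 set-apart libraries. The log2 fold change of Ccne2 was then -0.05 (adjusted p = 0.85, edgeR) and that of Ccnc 0.01 (adjusted p = 0.96), and the 12 borrelidin libraries were compared with 3 of vehicle. Orc3 lost its call at 0.18 (adjusted p = 0.19), although all 12 borrelidin libraries lay above the 3 vehicle libraries (168.1, 177.5 and 184.5 CPM), and with the library set as a term in the model it was called at 0.34 (adjusted p = 3.94e-04, edgeR).

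Melk showed the opposite pattern. It had 205, 240 and 257 CPM in WT with borrelidin, against 177, 218 and 331 CPM in WT with vehicle, and its log2 fold change was -0.02 ± 0.10 (SE, adjusted p = 0.88, edgeR). The 3 vehicle libraries outside the set, at 311, 318 and 331 CPM, all lay above the 12 borrelidin libraries. Without the 14 libraries Melk fell by 0.46 on the log2 scale with borrelidin (adjusted p = 5.29e-05, edgeR), and with the set as a term by 0.38 (adjusted p = 4.44e-06). It was the only gene of the 6 called without the 14 libraries, where 10.8% of all rows were called.

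Smc2 and Esco1 did not pass the test in WT. Smc2 had 445, 741 and 795 CPM with borrelidin, against 593, 616 and 850 CPM with vehicle, with a log2 fold change of 0.11 ± 0.08 (SE, adjusted p = 0.25, edgeR). Esco1 had 75.8, 96.3 and 106 CPM with borrelidin, against 75.7, 84.7 and 102 CPM with vehicle, with a log2 fold change of 0.10 ± 0.08 (SE, adjusted p = 0.25). The lowest value of Smc2 came from replicate 5 of WT with borrelidin (763 counts, TMM factor 0.742), while the other 11 libraries of the group lay between 694 and 795 CPM.

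The second question was what borrelidin did in the line without ATF4. In ATF4 KO MEFs Orc3 rose and Smc2 fell with borrelidin, and the other 4 genes did not pass the test. Over all rows 30.6% were called, 16.8% higher and 13.8% lower, so 2 of 6 is near that share here too. Among the 205 tested protein-coding genes of the same stretches 46.3% were called with all libraries, 61 higher and 34 lower. The 2 of 6 lies under that share. At 1e-10 none of the 6 passed, while 0.456% of all rows did. The median log2 fold change of the 6 was -0.05, against -0.001 over all rows.

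Orc3 had 195, 216 and 232 CPM in ATF4 KO with borrelidin, against 172, 182 and 205 CPM in ATF4 KO with vehicle. Of the 12 borrelidin libraries 10 lay above every vehicle library. The log2 fold change was 0.24 ± 0.05 (SE, adjusted p = 4.76e-04, edgeR), and 0.22 without the 14 libraries (adjusted p = 4.16e-04). The 3 set-apart libraries of each group averaged 216 CPM with borrelidin against 181 CPM with vehicle, and the others 216 against 183 CPM, so the change was as large in either set.

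Smc2 had 587, 632 and 739 CPM in ATF4 KO with borrelidin, against 638, 771 and 839 CPM in ATF4 KO with vehicle. All 12 borrelidin libraries lay below the median of vehicle, and 6 of them below every vehicle library. Its log2 fold change was -0.21 ± 0.07 (SE, adjusted p = 0.027, edgeR), and -0.26 without the 14 libraries (adjusted p = 0.0057). With no filter on low counts, which adjusts over 33929 rows, neither Smc2 (-0.21, adjusted p = 0.22, edgeR) nor Orc3 (0.24, adjusted p = 0.058) was called.

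Ccne2 had 115, 203 and 238 CPM in ATF4 KO with borrelidin, against 130, 255 and 320 CPM in ATF4 KO with vehicle. Its log2 fold change was -0.33 ± 0.16 (SE, adjusted p = 0.11, edgeR). Same-numbered ATF4 KO libraries deviated together in 11 of 11 pairs, but in 2 of 8 pairs among replicates 4 and up. When replicate number was fitted as a block, the value of Ccne2 was -0.34 with an adjusted p of 0.02 (edgeR). Outside the sets the groups did not overlap, at 191 to 238 CPM in the 9 libraries with borrelidin against 243 to 320 CPM in the 8 with vehicle, and the log2 fold change without the 14 libraries was -0.39 (adjusted p = 5.47e-06, edgeR). In the set-apart libraries Ccne2 averaged 123 CPM with borrelidin against 138 CPM with vehicle, and these overlapped.

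Ccnc had 142, 203 and 227 CPM in ATF4 KO with borrelidin, against 132, 168 and 193 CPM with vehicle, with a log2 fold change of 0.23 ± 0.09 (SE, adjusted p = 0.053, edgeR). It passed with the replicate block (0.21, adjusted p = 0.022) and without the 14 libraries (0.24, adjusted p = 0.0016), so that 4 of the 6 genes were called with the block, against 33.4% of all rows, and 5 of 6 without the 14 libraries, against 41.8% of all rows. Melk had 186, 255 and 282 CPM with borrelidin, against 182, 283 and 315 CPM with vehicle (log2 fold change -0.10 ± 0.10, SE, adjusted p = 0.46, edgeR), and was lower with borrelidin without the 14 libraries (-0.16, adjusted p = 0.0066) but not called with the set as a term (-0.099, adjusted p = 0.09). Esco1 had 101, 114 and 161 CPM with borrelidin, against 101, 120 and 154 CPM with vehicle, and a log2 fold change of 0.006 ± 0.07 (SE, adjusted p = 0.96).

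**Figure D3:**
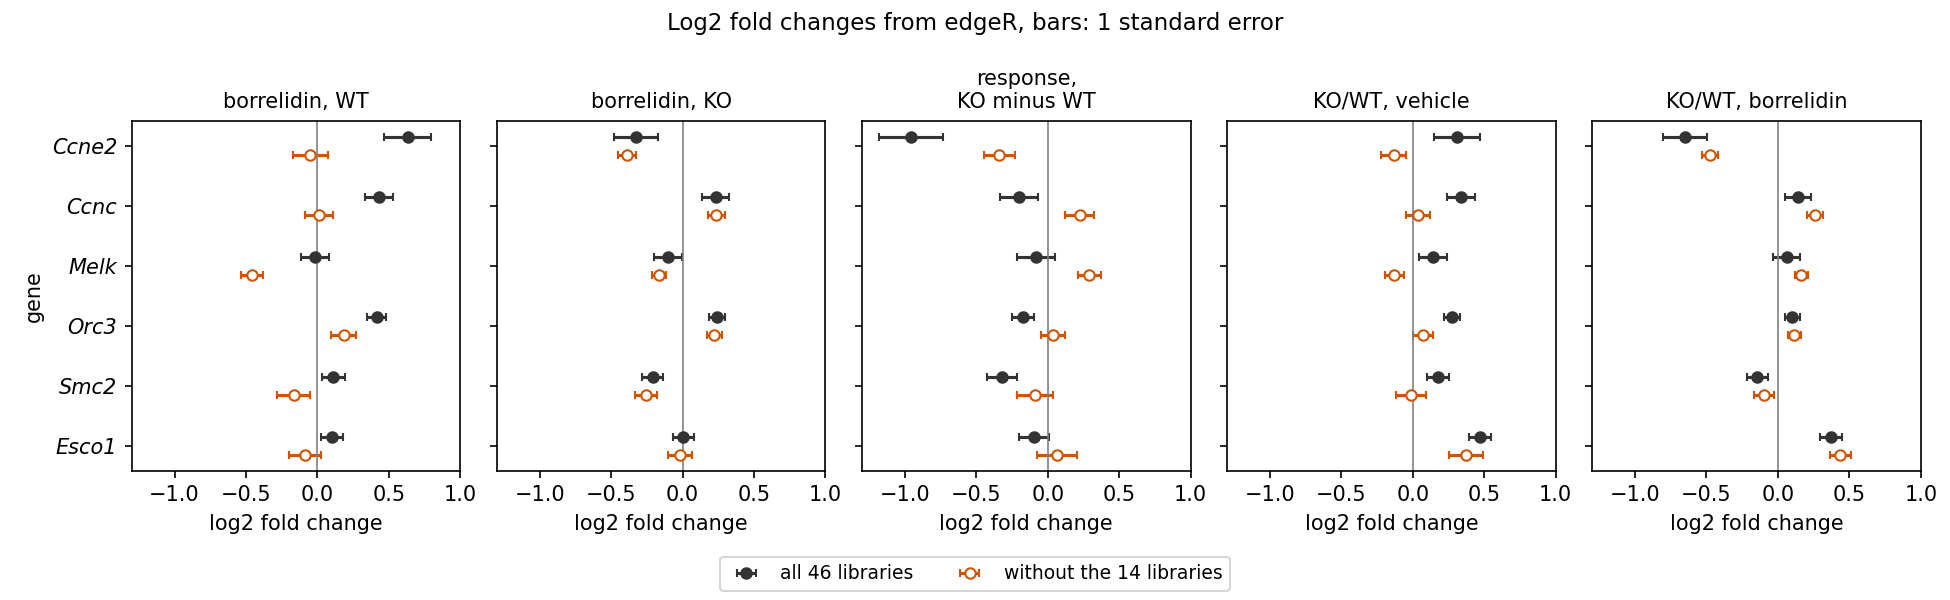
Log2 fold change (horizontal axes) of each gene in the 5 comparisons, with bars of 1 SE from edgeR. Filled points use all 46 libraries and open points leave out the 14 set-apart libraries. The difference of response of Ccne2 is below 0 in both fits (-0.96 and -0.34), Esco1 is above 0 in both comparisons of the genotypes, and the values of Ccne2 and Ccnc in WT lie near 0 without the 14 libraries.

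The interaction of genotype and borrelidin tested whether the responses of the lines differ. The responses of Ccne2 and Smc2 were lower in ATF4 KO than in WT, and no gene of the 6 had a higher one. Over all rows 33.6% were called, 17.4% higher and 16.3% lower, and 2 of 6 is again near that share. Among the 205 tested protein-coding genes of the same stretches 45.4% were called with all libraries, 35 higher and 58 lower. The 2 of 6 lies under that share. None of the 6 passed 1e-10, which 0.512% of all rows did. The response of Ccne2 was -0.33 in ATF4 KO and 0.63 in WT on the log2 scale, a difference of -0.96 ± 0.22 (SE, adjusted p = 0.001, edgeR). Leaving out the 14 libraries, the responses were -0.39 and -0.05 and the difference was -0.34 (adjusted p = 0.037), and with the set as a term the difference was also -0.34 (adjusted p = 0.0037). The sign was thus kept and the difference stayed past 0.05 in each of the 9 fits tried, with a size from -1.33 to -0.34. Of these, only leaving out the 14 libraries and the set as a term take the library sets into account. The fit without the 14 rests on 3 libraries of WT with vehicle.

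The response of Smc2 was -0.21 in ATF4 KO and 0.11 in WT, a difference of -0.32 ± 0.10 (SE, adjusted p = 0.017, edgeR). In the other libraries it was -0.09 (adjusted p = 0.74), and with the set as a term -0.14 (adjusted p = 0.29). Melk had a difference of -0.08 ± 0.14 (SE, adjusted p = 0.66, edgeR) with all libraries, and 0.29 without the 14 (adjusted p = 0.015), where the response was -0.16 in ATF4 KO and -0.46 in WT. With Ccne2 and Melk, 2 of the 6 genes were called without the 14 libraries, against 9.9% of all rows. The differences of Ccnc (-0.20, adjusted p = 0.23), Orc3 (-0.17, adjusted p = 0.07) and Esco1 (-0.10, adjusted p = 0.49) did not pass the test in edgeR, but Orc3 did in DESeq2 (-0.17, adjusted p = 0.043).

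Between the lines under vehicle, Ccnc, Orc3 and Esco1 were higher in ATF4 KO and no gene of the 6 was lower. Over all rows 35.2% were called, 17.5% higher and 17.7% lower. None of the 6 passed 1e-10, which 2.59% of all rows did. With all libraries the median log2 fold change of the 6 was 0.29, against -0.009 over all rows. Without the 14 libraries the values of the 6 ranged from -0.14 (Ccne2) to 0.37 (Esco1), with a median of 0.005 over all rows. Among the 205 tested protein-coding genes of the same stretches 45.4% were called, 75 genes higher and 18 lower in ATF4 KO. These counts use all libraries, with 8 set-apart libraries in WT and 3 in ATF4 KO under vehicle, and were not repeated without the 14 libraries. Without the 14, 1 of the 6 genes was called, against 21.1% of all rows.

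Esco1 had 101, 120 and 154 CPM in ATF4 KO with vehicle, against 75.7, 84.7 and 102 CPM in WT with vehicle, and 10 of 11 ATF4 KO libraries lay above every WT library. Its log2 fold change was 0.47 ± 0.08 (SE, adjusted p = 2.42e-06, edgeR), and 0.37 without the 14 libraries (adjusted p = 0.02). Orc3 had 172, 182 and 205 CPM in ATF4 KO, against 122, 147 and 185 CPM in WT (log2 fold change 0.28 ± 0.06, SE, adjusted p = 8.19e-05, edgeR), with 0.07 without the 14 libraries (adjusted p = 0.52) and 0.23 with the set as a term (adjusted p = 5.48e-04). Ccnc had 132, 168 and 193 CPM in ATF4 KO, against 99.3, 122 and 179 CPM in WT (0.34 ± 0.10, SE, adjusted p = 0.0045, edgeR), with 0.04 without the 14 libraries (adjusted p = 0.82) and 0.13 with the set as a term (adjusted p = 0.079).

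The values of Ccne2 under vehicle were 130, 255 and 320 CPM in ATF4 KO and 132, 159 and 319 CPM in WT, with a log2 fold change of 0.31 ± 0.16 (SE, adjusted p = 0.13, edgeR) and of -0.14 without the 14 libraries (adjusted p = 0.31). Melk (0.14, adjusted p = 0.26) and Smc2 (0.17, adjusted p = 0.067) did not pass the test either. Smc2 passed in DESeq2 (0.17, adjusted p = 0.046) and without the library in which it was lowest (0.17, adjusted p = 0.025, edgeR), which is of another group and enters only through the shared fit.

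Under borrelidin, where 9 of the 12 ATF4 KO libraries and all 12 WT libraries lie outside the sets, Ccne2 was lower and Esco1 higher in ATF4 KO. Over all rows 49.9% were called, 25.5% higher and 24.5% lower, so 2 of 6 lies under the background. Among the 205 tested protein-coding genes of the same stretches 56.1% were called with all libraries, 66 higher and 49 lower. None of the 6 passed 1e-10, which 5.42% of all rows did. Ccne2 had 115, 203 and 238 CPM in ATF4 KO with borrelidin, against 252, 303 and 349 CPM in WT with borrelidin. All 12 ATF4 KO libraries lay below all 12 WT libraries, which held for 6.12% of all rows in the lower direction. Its log2 fold change was -0.65 ± 0.15 (SE, adjusted p = 4.33e-04, edgeR), that is 0.638 of the WT level, and -0.48 without the 14 libraries (adjusted p = 9.09e-09). Over the 9 alternative fits it ranged from -0.69 to -0.45, with adjusted p from 1.30e-09 to 4.84e-04.

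Esco1 had 101, 114 and 161 CPM in ATF4 KO with borrelidin, against 75.8, 96.3 and 106 CPM in WT with borrelidin, and 10 of 12 ATF4 KO libraries lay above every WT library. Its log2 fold change was 0.37 ± 0.07 (SE, adjusted p = 3.80e-05, edgeR), and 0.44 without the 14 libraries (adjusted p = 5.23e-06). Ccnc (0.14, adjusted p = 0.21), Melk (0.06, adjusted p = 0.6), Orc3 (0.10, adjusted p = 0.11) and Smc2 (-0.14, adjusted p = 0.094) did not pass the test in edgeR, while Orc3 passed in DESeq2 (0.11, adjusted p = 0.042). Once the 14 libraries were left out, Ccnc (0.26, adjusted p = 1.14e-04), Melk (0.16, adjusted p = 0.0024) and Orc3 (0.11, adjusted p = 0.033) were higher in ATF4 KO, and 54.3% of all rows were called. Smc2 had -0.10 without the 14 (adjusted p = 0.22) and was lower without its lowest library (-0.19, adjusted p = 0.0081, edgeR).

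Among 6 markers of B cells and of neural or retinal cells in the same stretches, Pax5, a transcription factor of B cells, separated the lines. It had 9.72, 14.3 and 39.3 CPM in ATF4 KO with borrelidin, against 0, 0 and 1.17 CPM in WT with borrelidin, and 4.23, 8.68 and 16.0 CPM in ATF4 KO with vehicle, against 0, 0.287 and 1.29 CPM in WT with vehicle. Cd72, a receptor of B cells, averaged 86.2 to 107 CPM in the 4 groups, and its row overlaps another gene. Under borrelidin Cd72 was higher in ATF4 KO with all libraries (log2 fold change 0.27, adjusted p = 0.012, edgeR). The other 4 markers averaged under 1 CPM in each group. The summed level of the 6 markers ranged from 91.1 to 146 CPM in ATF4 KO with borrelidin, from 71.3 to 161 in WT with borrelidin, from 79.3 to 114 in ATF4 KO with vehicle and from 75.2 to 110 in WT with vehicle. The summed level of the 5 fibroblast markers ranged from 693 to 913 CPM in ATF4 KO with borrelidin, from 799 to 1120 in WT with borrelidin, from 661 to 983 in ATF4 KO with vehicle and from 887 to 1130 in WT with vehicle. The sum of the fibroblast markers holds genes that differ in direction. Under borrelidin Tpm2, the highest of them by mean, was lower in ATF4 KO with all libraries (log2 fold change -0.45, adjusted p = 1.17e-04, edgeR). Reck (1.06, adjusted p = 2.87e-08) and Zeb1 (0.43, adjusted p = 4.73e-05) were higher, and Tgfbr1 was not called (0.03, adjusted p = 0.78). The part of these markers in the differences between the lines was not tested.

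Of 182 other listed genes of the cell cycle, replication, cohesion and repair, 13 lie in the same stretches and 12 were tested, while Cetn1 was not counted in any library. With borrelidin 5 rose and 1 fell in ATF4 KO (background 30.6%), and 7 rose and 2 fell in WT (57.2%). In the difference of response 2 were higher and 2 lower (33.6%), between the lines under vehicle 6 were higher and 1 lower (35.2%), and under borrelidin 5 higher and 2 lower (49.9%). By list, the difference of response was passed by 1 of 1 cyclins and partners, 0 of 3 replication genes, 0 of 3 cohesion and mitosis genes and 3 of 5 checkpoint and repair genes. None of the 12 passed 1e-10 in any comparison. Their median log2 fold change was 0.14 in ATF4 KO, against -0.001 over all rows, and 0.35 in WT, against -0.04 over all rows. In fits without the 14 libraries 6 rose and 2 fell in ATF4 KO (41.8% of all rows), and 0 rose and 2 fell in WT (10.8%). In the difference of response 4 were then higher and 1 lower (9.9%). Between the lines 3 were higher and 2 lower under vehicle (21.1%), and 9 higher and 2 lower under borrelidin (54.3%). The medians were then 0.105 in ATF4 KO, against 0.006 over all rows, and 0.015 in WT, against 0.01 over all rows.

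With all libraries, the 4 genes that passed in the difference of response were Ccny, Rad54b, Fancg and Rad23b. Ccny, cyclin Y, which binds the kinase Cdk14, averaged 255 ± 20.1 CPM in ATF4 KO with borrelidin and 326 ± 45.8 CPM in ATF4 KO with vehicle (SD, n = 12 and 11), and 397 ± 22.4 CPM in WT with borrelidin and 261 ± 44.1 CPM in WT with vehicle (SD, n = 12 and 11). Its response was -0.36 in ATF4 KO and 0.61 in WT on the log2 scale, a difference of -0.96 (adjusted p = 7.60e-10, edgeR), and of -0.73 without the 14 libraries (adjusted p = 4.06e-08). Rad54b, a factor of homologous recombination, responded with 0.38 in ATF4 KO and -0.27 in WT (difference 0.65, adjusted p = 2.51e-05, edgeR, and 0.61 without the 14 libraries, adjusted p = 0.0011). Fancg, of the Fanconi anemia core complex, responded with -0.06 in ATF4 KO and -0.66 in WT (difference 0.60, adjusted p = 6.34e-04, edgeR, and 0.50 without the 14 libraries, adjusted p = 0.0025). Rad23b, of nucleotide excision repair, responded with 0.18 in ATF4 KO and 0.64 in WT (difference -0.46, adjusted p = 0.024, edgeR), but its difference was -0.051 without the 14 libraries (adjusted p = 0.78). Nbn and Mms22l did not pass with all libraries (0.081, adjusted p = 0.71, and 0.065, adjusted p = 0.67, edgeR). Without the 14 they did (0.46, adjusted p = 0.0013, and 0.37, adjusted p = 0.021), and also with the set as a term (0.52, adjusted p = 1.47e-06, and 0.31, adjusted p = 0.0031).

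Over the 46 libraries, whose points share scaling, groups and library sets, Pearson's r of log2 CPM was 0.66 between Ccne2 and Melk, 0.63 between Ccne2 and Ccnc, and 0.82 between Ccnc and Orc3. With each group centred on its mean these were 0.87, 0.87 and 0.59, and Orc3 with Smc2 had 0.27. Among 198 protein-coding genes of the stretches, the gene whose log2 CPM over the 46 libraries was most like that of Ccne2 was Tomm5 (r = 0.937), of Ccnc 2610301B20Rik (0.948), of Melk Dnaja1 (0.884), of Orc3 Plekhf2 (0.864), of Smc2 Asph (0.79) and of Esco1 Kif5b (0.803). With groups centred these were 0.916, 0.897, 0.924, 0.387, 0.797 and 0.652 in the same order of genes. These values describe likeness over libraries only.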

How the data were processed

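Raw counts per mouse gene identifier in 46 MEF libraries were used as the authors deposited them, without normalization or pooling. The study names fastp, HISAT2 and feature counts, while HISAT2, HTSeq and mm10 stand in the processing notes of the submitters. No source used here gives tool versions, the strandedness of the counting or its annotation release. The 5 rows that name no gene (69.0% of reads for no feature on average) stayed out of library sizes and tests.

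Identifiers were looked up in GENCODE M21, in which 52083 of 55416 occur. In the stretches used, on chromosomes 4 and 18 (774 rows), 64.8% of protein-coding rows averaged at least 5 CPM, against 4.66% of processed pseudogenes, while over all other rows the shares were 26.7% and 3.62%. Rows elsewhere serve only as background, since their genes are not known.

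Counts were tested with edgeR 4.0.16 in R 4.3.3 (TMM, filterByExpr, quasi-likelihood, two-sided, Benjamini-Hochberg over 8986 rows, calls at adjusted p under 0.05), checked on simulated counts, with tables made in Python 3.11.15. The simulated counts held no library sets, so they cannot check the tests under the uneven spread of the sets over the groups. The response of WT was fitted as ATF4 activity plus genotype, the model of the study, and the other comparisons as contrasts of 4 group means. In the WT model both ATF4 KO groups share a mean, so a response to borrelidin there adds to the spread. With 4 group means in WT, 5327 rows and the same 3 genes were called, and the SE of Orc3 was 0.055, against 0.066. Levels are TMM-normalized CPM, and their precision is limited by 2047362 to 3467765 counts per library. Alternatives tried were no filter on low counts, median ratio scaling, DESeq2 1.42.0, limma 3.58.1 (voom), a replicate block and leaving out 14 libraries. Further alternatives were the library set as a term, only the groups compared, 4 group means for WT and a threshold of 1e-10. The library sets were described without a test. Every pair of libraries within a group differed beyond counting noise (chi-square over its degrees of freedom at least 1.96).

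The labels repeat replicate numbers across groups. Same-numbered ATF4 KO libraries deviated together in 11 of 11 pairs (r 0.185 to 0.782), so their blocked values are printed where a call changes. Among ATF4 KO replicates 4 and up this held in 2 of 8 pairs. The members and lists were chosen with earlier results of these data known. The genes named are the 6 members, the most alike gene of each, the markers, and listed genes passing in the difference of response with all libraries. Cetn1, Nbn, Mms22l, and the 2 genes that overlap members, were named after their values were seen.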

Additional observations from a re-analysis of the deposited data

Results flagged for a closer look

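The borrelidin responses of 2 genes differed between the lines by the interaction test. The response of Ccne2 in ATF4 KO minus that in WT was -0.96 on the log2 scale (adjusted p = 0.001, edgeR), with 12 of 12 ATF4 KO borrelidin libraries below the median of ATF4 KO vehicle and 12 of 12 WT borrelidin libraries above the median of WT vehicle. The response of Smc2 differed by -0.32 (adjusted p = 0.017, edgeR), with 12 of 12 ATF4 KO borrelidin libraries below and 11 of 12 WT borrelidin libraries above the median of their vehicle group. In WT with vehicle 8 libraries are set-apart, so these WT vehicle medians lie among set-apart values, and no WT borrelidin library is set-apart. The 3 other WT vehicle libraries had medians of 307 CPM for Ccne2 and 813 CPM for Smc2. WT with borrelidin had medians of 303 and 741 CPM, and its highest Smc2 value was 795 CPM. In ATF4 KO with vehicle the medians (255 CPM for Ccne2, 771 CPM for Smc2) lie among values of libraries outside the sets. The set-apart ATF4 KO libraries of Ccne2 overlapped, at 115 to 136 CPM with borrelidin and 130 to 146 CPM with vehicle. Those of Smc2 did not, at 601 to 614 CPM against 638 to 683 CPM. Without the 14 set-apart libraries the differences were -0.34 for Ccne2 (adjusted p = 0.037, edgeR) and -0.09 for Smc2 (adjusted p = 0.74).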

How the results depend on the processing

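Of 300 values of the 6 genes under alternatives, 225 kept direction and side of the threshold, and 27 changed sign, whether or not their call changed. Of the others, which kept direction, 14 lost and 34 gained a call. The cause was not tested. Without the 14 libraries the sign changed for Ccne2 (-0.05), Smc2 (-0.17) and Esco1 (-0.087) in WT, for Esco1 (-0.019) in ATF4 KO, for Ccnc (0.22), Melk (0.29), Orc3 (0.04) and Esco1 (0.066) in the difference of response, and for Ccne2 (-0.14), Melk (-0.13) and Smc2 (-0.01) between the lines under vehicle. With the set as a term it changed for Smc2 (-0.072) and Esco1 (-0.075) in WT, Ccnc (0.11), Melk (0.28) and Esco1 (0.076) in the difference, and Ccne2 (-0.11) and Melk (-0.091) under vehicle. With vehicle replicates 1 to 8 only, the sign of Melk in WT changed to 0.20 (adjusted p = 0.052, edgeR), against -0.46 (adjusted p = 5.29e-05) without the 14 libraries. Other changes of sign gave values near 0. They were Melk in WT (0.011 without a filter and with voom) and in ATF4 KO replicates 1 to 3 (0.051). Esco1 in ATF4 KO had -0.012 with the median ratio and with DESeq2, and -0.002 with the block. It had -0.017 with the compared groups only and -0.023 in replicates 4 and up.

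Rows called at 1e-10 were 122 in WT, 41 in ATF4 KO, 46 in the difference, 233 between lines under vehicle and 487 under borrelidin, with 0 of the 6 genes in each. Without the 14 libraries 959 rows and 1 gene were called in WT, 3718 rows and 5 genes in ATF4 KO, 880 rows and 2 genes in the difference, 1880 rows and 1 gene under vehicle and 4823 rows and 5 genes under borrelidin, of 8890 rows, and 5144, 3023 and 3167 rows with all libraries in WT, the difference and under vehicle. With the set as a term 2132 rows and 2 genes were called in WT, 3827 rows and 4 genes in ATF4 KO, 1797 rows and 2 genes in the difference and 4887 rows and 5 genes under borrelidin, of 8986 rows. Without a filter 0 genes and 6.09% of 33929 rows were called in ATF4 KO, and 1 gene and 7.4% of rows in the difference. In WT 34.4% of the calls were then higher, against 46.4% with it, with a median shift of -0.402 over all rows, and 56.9% were higher without the 14 libraries. In the difference 36.6% were higher without them, against 51.6%. In fits chosen after seeing the data, WT vehicle replicates 1 to 8 alone gave 5 genes in WT (64.3% of all rows), 5 in the difference (48.5%) and 6 under vehicle (49.3%), ATF4 KO replicates 1 to 3 alone 743 rows (8.02%) and 0 genes, and ATF4 KO replicates 4 and up 5 genes (51.1%). The replicate block gave 4 genes in ATF4 KO (33.4% of all rows) and 5 under vehicle (41.9%), where Ccne2 (0.32, adjusted p = 0.027, edgeR) and Smc2 (0.19, adjusted p = 0.039) gained a call, and changed no other call. Outside ATF4 KO the numbers were not shown to pair libraries, with a correlation over 0.1 in 2 of 11, 5 of 10 and 3 of 12 pairs. Only 1, 2 and 1 libraries there correlated best with their own number. In ATF4 KO this held for only 2 of 11 libraries, and replicates 1 to 3 are set-apart in both ATF4 KO groups.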
